A study of Mus musculus with 8 samples.

Results

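Globin switching in the developing mouse kidney was followed through 9 genes that red blood cells and their precursors are known to use. These were the embryonic globins Hbb-y, Hbb-bh1 and Hba-x, the adult globin Hba-a1, the heme synthesis gene Alas2, the transcription factors Klf1 and Gata1, the erythropoietin receptor gene Epor, and Epb42 (listed by its older symbol Epb4.2). Every probe set that the array annotation assigned to 1 of these genes and to no other was taken, without regard to its signal, which gave 14 probe sets of 45101 on the array and 9 genes of 18194 named through a single symbol. Whole kidneys of mouse embryos were measured on Affymetrix mouse genome arrays. RNA of 23 control embryos and of 17 Lim1 conditional mutants was pooled at embryonic day 14.5 (E14.5C and E14.5M), and RNA of 14 controls and of 9 mutants at embryonic day 18.5 (E18.5C and E18.5M).

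Control kidneys were Lim1flox/+; Rarb2Cretg/+ and mutant kidneys Lim1flox/lacZ; Rarb2-Cretg/+, so all 4 pools carried a floxed Lim1 allele and the Cre transgene. The Lim1 stocks were kept on a C57BL/6J and 129/SvEv background and the transgenic line was made on C57BL/6J and SJL/J; no group received an agent. Rarb2-Cre acts in the metanephric mesenchyme, the tissue that forms nephrons, and the lacZ null allele of the mutants is present in all their cells, ureteric bud included. Each condition was 1 pool, and its 2 arrays came from separate target preparations of the same RNA. The duplicates therefore measure technical spread, and embryo to embryo variation within a condition was averaged away before the measurement.

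The first red cells of the mouse embryo arise in the yolk sac and carry embryonic globins. Later generations of red cells, made in the fetal liver and then in bone marrow, carry adult globins, and the replacement of the first kind by the second is called globin switching. The vessels of a developing kidney hold circulating blood. Where the globin RNA of these whole kidneys arose was not tested.

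The beta-like genes Hbb-y (chromosome 7, 103851754 to 103853207) and Hbb-bh1 (chromosome 7, 103841638 to 103843162) lie in one cluster, and the alpha-like genes Hba-x (chromosome 11, 32276600 to 32278116) and Hba-a1 (chromosome 11, 32283672 to 32284486) in another, in the mouse build GRCm38.p6. Promoters of 8 of the 9 genes were found in RefSeq for that build. The 150 bases before the annotated start are shown for the 2 embryonic globins whose signal fell, for the adult alpha globin, and for Alas2, to set genes called lower beside genes that were not called. Capitals mark, on either strand, the GATA motifs AGATAA and TGATAA, the CACCC core CCACCC, the CCAAT box, and TATAAA and ATAAAA. In Alas2 the run TTTTATCT joins an ATAAAA and an AGATAA on the opposite strand, and the long run near the start joins 3 overlapping CCACCC on the opposite strand.
Hbb-y (chr7:103853208-103853357, minus strand): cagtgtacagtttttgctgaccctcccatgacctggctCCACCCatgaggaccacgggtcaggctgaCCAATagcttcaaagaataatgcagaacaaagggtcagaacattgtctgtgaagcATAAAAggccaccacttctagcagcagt
Hba-x (chr11:32276450-32276599, plus strand): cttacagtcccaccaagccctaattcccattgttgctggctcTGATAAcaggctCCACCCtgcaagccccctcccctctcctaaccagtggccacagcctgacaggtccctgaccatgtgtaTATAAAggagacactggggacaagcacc
Hba-a1 (chr11:32283522-32283671, plus strand): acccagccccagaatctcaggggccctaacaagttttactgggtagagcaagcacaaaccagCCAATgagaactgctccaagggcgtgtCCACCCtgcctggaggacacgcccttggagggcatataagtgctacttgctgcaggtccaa
Alas2 (chrX:150547267-150547416, plus strand): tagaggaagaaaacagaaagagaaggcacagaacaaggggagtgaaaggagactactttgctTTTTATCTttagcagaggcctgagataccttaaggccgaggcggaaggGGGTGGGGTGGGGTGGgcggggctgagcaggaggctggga

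All 3 globin promoters held CCACCC on the strand of the gene, which starts 112 bases before the start of Hbb-y, 96 bases before Hba-x and 61 bases before Hba-a1. It was also in Alas2, Gata1 and Epor. CCACCC was in 27.7% of 27025 promoters over the 250 bases before the start, and it was added to the search after the sequences had been seen. The longer CACCC motif CCACACCC, in 3.19% of promoters, was in none of the 8, and the looser CCNCNCCC, in 45.6%, was in Hba-x, Alas2, Gata1 and Epor. TGATAA, in 8.16% of promoters, was 108 bases before the start in Hba-x, 183 bases before it in Hba-a1 and, on the opposite strand, 162 bases before it in Hbb-y and 80 bases before it in Klf1. AGATAA, in 10.3%, was on the opposite strand in Alas2, Epor and Epb42, at 86, 54 and 226 bases. CCAAT, in 34.5%, was in Hbb-y, Hba-a1 and Klf1 at 83, 88 and 64 bases, and a TATAAA (13.0%) or ATAAAA (17.6%) began 28 bases before the start of both embryonic genes. On the opposite strand TATAAA was also in Alas2 and Epb42, at 209 and 126 bases, and ATAAAA in Alas2, at 88 bases. All 3 globin promoters thus held CCACCC and TGATAA within 250 bases. CCAAT was not found in Hba-x and neither TATAAA nor ATAAAA, as exact strings, in Hba-a1, whose printed sequence holds the near match tataag. These are matches of letters, and binding was not measured.

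The arrays had median signals of 225 to 243 and 40th percentiles of 177 to 193. The duplicates correlated at r = 0.980 to 0.990 over all probe sets, with a median fold of 1.08 to 1.16 between them. All 8 kidney markers measured, among them Six2, Sall1 and Wt1, were at or above the 40th percentile on every array. Lhx1, the gene that encodes Lim1, gave signals of 388 and 365 in E14.5C, 323 and 290 in E14.5M, 342 and 382 in E18.5C, and 459 and 379 in E18.5M on one probe set (1421951_at), and 449 and 517, 563 and 554, 370 and 352, and 296 and 333 on the other (1450428_at). These probe sets went opposite ways between the genotypes at each stage, and where they lie relative to the deleted part was not known, so they do not check the genotype labels.

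Between E14.5 and E18.5 the signals of Hbb-y and Hba-x fell in both genotypes. Those of Alas2, Klf1, Epor and the 1 probe set of the adult alpha globin Hba-a1 stayed within 1.23-fold of their earlier mean. Other adult globins were mixed. Hbb-b2 fell 3.02-fold in controls and 3.20-fold in mutants on its brightest probe set, and Hba-a2 fell 1.36-fold and 1.27-fold. Probe sets of several adult globin genes had ratios of 0.909 to 1.28. With 1 pool a condition, a difference between 2 pools has no test. It was called by size, when the mean of one pool was at least 2 times that of the other, the ratio exceeded the fold between duplicates, and both arrays of the higher pool reached the 40th percentile of their array. In controls 2 of 9 genes (4 of 14 probe sets) were called lower at E18.5, Hbb-y and Hba-x, against 2.94% of all named genes, and 0 of 9 higher, against 4.75%. Mutant kidneys had 3 of 9 genes (5 of 14 probe sets) called lower, with Hbb-bh1 added, against 1.49% of named genes, and 0 of 9 higher, against 1.35%. In whole tissue, fewer cells of a type and less RNA per cell cannot be told apart.

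**Figure D1:**
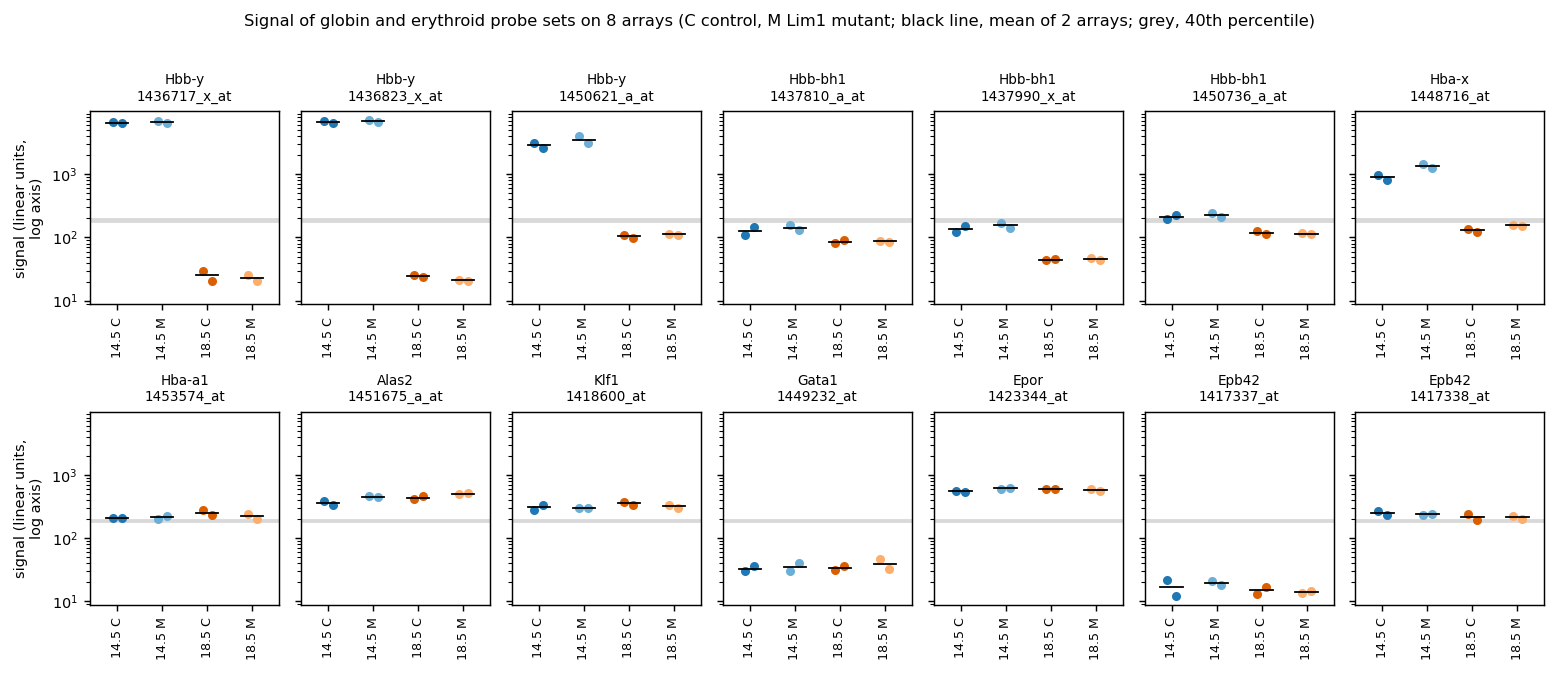
Signal (linear units, log axis) of the 14 probe sets on the 8 arrays; each point is 1 array, the black line the mean of the 2 arrays of a pool, C control and M mutant, and the grey band the range of the 40th percentile over arrays. The 3 Hbb-y probe sets and the Hba-x probe set lie above the band at E14.5 and below it at E18.5, and 1 of the 3 Hbb-bh1 probe sets crosses the band the same way.

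Hbb-y, which encodes the embryonic epsilon-like beta globin, had 3 probe sets. The first, 1436823_x_at, read 7021 and 6570 on the E14.5C arrays, 7189 and 6718 on the E14.5M arrays, 25.2 and 23.3 on the E18.5C arrays and 21.5 and 20.7 on the E18.5M arrays. The stages were far apart and the genotypes overlapped at E14.5. The mean fell 280-fold in controls (261 to 301 over the 4 pairings of arrays) and 330-fold in mutants (312 to 348). Since the E18.5 signals lay below the 40th percentile of their arrays (the minimum used here for a measured level), the fall is bounded as at least 37.9-fold in controls and at least 37.5-fold in mutants, against that percentile.

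The other Hbb-y probe sets went the same way. Probe set 1436717_x_at read 6689 and 6515 in E14.5C, 6939 and 6473 in E14.5M, 30.0 and 20.4 in E18.5C and 25.5 and 20.2 in E18.5M, ratios of 262 and 293, bounded as at least 36.8-fold and 36.2-fold against the 40th percentile. Probe set 1450621_a_at read 3130 and 2595 in E14.5C, 3990 and 3086 in E14.5M, 111 and 98.5 in E18.5C and 115 and 110 in E18.5M, ratios of 27.3 and 31.4, bounded as at least 16.0-fold and 19.1-fold. On both probe sets every E18.5 value was far below every E14.5 value, and with E18.5 signals under the minimum the sizes of the falls are not ranked. In a limma fit of stage and genotype over the 4 pools, on the signals as deposited, the stage effect on log2 signal was -8.19 ± 0.12 (SE, adjusted p = 0.000252), -8.07 ± 0.12 (adjusted p = 0.000252) and -4.85 ± 0.12 (adjusted p = 0.00195) for the 3 probe sets in the order given. All 3 passed the filter of the fit (mean signal at the 40th percentile) through their E14.5 signal alone. They had to differ between stages, so these p-values are no support of their own. The effects rest on E18.5 values under the minimum.

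Hba-x, the embryonic alpha-like zeta globin, read 985 and 810 in E14.5C, 1444 and 1281 in E14.5M, 137 and 123 in E18.5C and 159 and 155 in E18.5M. No E18.5 value came near an E14.5 value. The fall was 6.88-fold in controls (5.89 to 7.99 over pairings) and 8.68-fold in mutants (8.04 to 9.33), or at least 5.01-fold and 7.36-fold against the 40th percentile, which the E18.5 arrays did not reach. Across genotypes the limma stage effect was -2.94 ± 0.14 (SE) with an adjusted p of 0.0150. Hba-x also passed the filter of the fit through its E14.5 signal alone, so this p-value is no support of its own. The effect rests on E18.5 values under the minimum.

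Hbb-bh1, the embryonic beta-h1 globin, had 1 probe set of 3 that reached the 40th percentile at E14.5. This one, 1450736_a_at, read 196 and 223 in E14.5C, 246 and 212 in E14.5M, 126 and 112 in E18.5C and 116 and 112 in E18.5M, a ratio of 1.76 (1.55 to 2.00) in controls and 2.01 (1.83 to 2.21) in mutants. Its E18.5 signals were below the 40th percentile, against which the fall was at least 1.17-fold and 1.24-fold, so a 2-fold fall was not measured. Only the mutant ratio reached 2, by 0.01, and the call was lost without the first E14.5M array or without the second E18.5M array, each of which left 2 of 9 genes called lower in mutants. Probe set 1437990_x_at read 124 and 150, 170 and 142, 43.6 and 44.9, and 46.8 and 43.8 in the same order, as-deposited ratios of 3.09 and 3.45, but no array reached the 40th percentile. Probe set 1437810_a_at read 109 and 144, 156 and 130, 80.4 and 90.4, and 88.5 and 85.4, ratios of 1.48 and 1.64. On all 3 probe sets every E14.5 array exceeded every E18.5 array, and none passed the filter of the limma fit (mean signal at the 40th percentile).

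**Figure D2:**
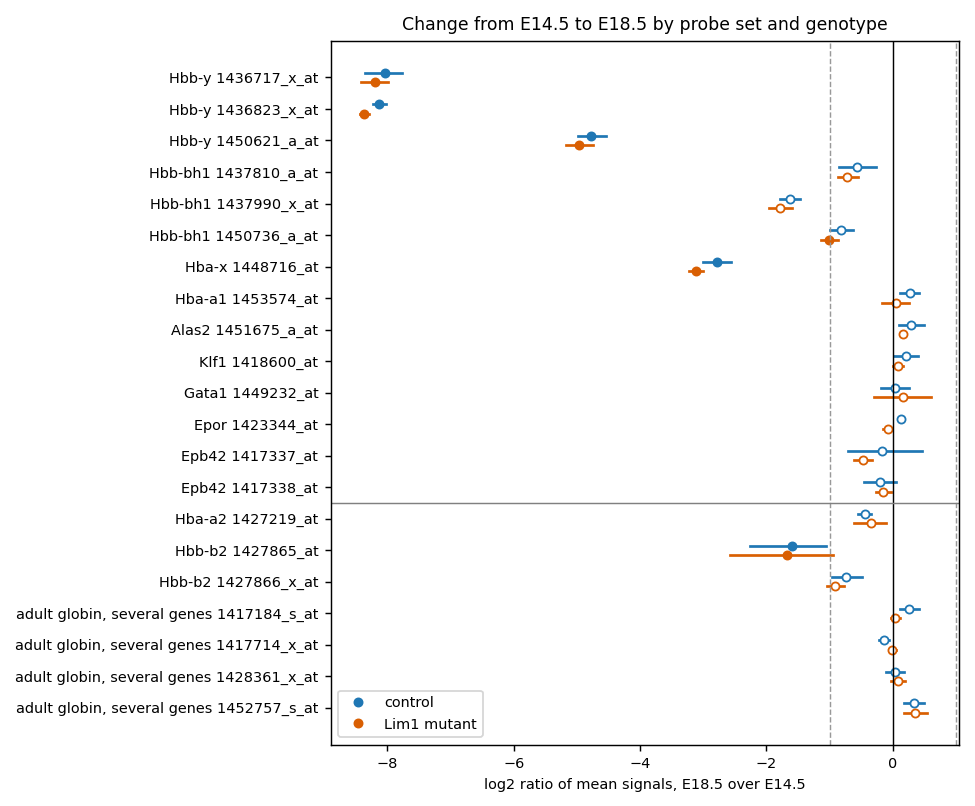
Log2 ratio of mean signals, E18.5 over E14.5, for the 14 probe sets of the 9 genes (above the line) and for 7 further adult globin probe sets (below it). Points are ratios in controls (blue) and mutants (orange), filled where the size criteria called them, bars the range over 4 pairings of arrays, and dashed lines 2-fold; the embryonic globins lie left of 0 and the 5 probe sets of Hba-a1 and of several adult globin genes at once lie between -0.14 and 0.36.

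The adult globins were mixed. Hba-a1, an adult alpha globin, read 206 and 209 in E14.5C, 202 and 226 in E14.5M, 275 and 227 in E18.5C and 241 and 200 in E18.5M, so that ratios were 1.21 (1.09 to 1.34) in controls and 1.03 (0.889 to 1.19) in mutants. Its signal was near the array median, and the limma stage effect was 0.15 ± 0.12 (adjusted p = 0.481). Further adult globin probe sets, chosen after the values had been seen, included 4 that the annotation assigns to several adult globin genes at once. They read 7073 to 16405 over the 8 arrays and had stage ratios of 0.909 to 1.25 in controls and 0.996 to 1.28 in mutants; array maxima were 15011 to 16775, and probe set 1428361_x_at was the maximum on both E18.5M arrays. What such bright signals do to the ratios was not tested.

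Hbb-b2, an adult beta globin, was called lower in both genotypes. Its probe set 1427865_at read 1126 and 1362 in E14.5C, 1197 and 1701 in E14.5M, 541 and 283 in E18.5C and 619 and 287 in E18.5M. Every E18.5 value lay below every E14.5 value, but the duplicates at E18.5 were 1.91-fold and 2.16-fold apart, and the ratios of 3.02 (2.08 to 4.82) and 3.20 (1.93 to 5.94) carry that spread. On the second Hbb-b2 probe set (1427866_x_at) the ratios were 1.67 and 1.88, neither of them called. Hba-a2 (1427219_at), the other adult alpha globin, read 324 and 349 in E14.5C, 316 and 294 in E14.5M, 255 and 239 in E18.5C and 274 and 207 in E18.5M, ratios of 1.36 and 1.27 that were not called. Both of these genes thus had every E18.5 array below every E14.5 array, which Hba-a1 did not. Globin genes of one family are close in sequence, so each single-gene value is uncertain to the extent that probes bind a relative, which was not tested.

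To set embryonic against adult globins without comparing levels between probe sets, the log2 stage ratio of the Hba-a1 probe set was taken from that of the brightest probe set of each embryonic gene. This reference is 1 probe set, which read 200 to 275 over the 8 arrays. The 40th percentiles of the arrays were 177 to 193. On the signals as deposited the difference was -8.41 for Hbb-y in both controls (-8.54 to -8.26 over pairings) and mutants (-8.64 to -8.17). For Hba-x it was -3.06 in controls (-3.26 to -2.83) and -3.16 in mutants (-3.43 to -2.88), and for Hbb-bh1 -1.09 (-1.22 to -0.95) and -1.05 (-1.34 to -0.76). The ranges overlapped between genotypes for each gene. With E18.5 signals below the 40th percentile raised to it, which bounds the fall and was chosen after seeing the data, the differences became -5.52 and -5.27 for Hbb-y, -2.60 and -2.92 for Hba-x, and -0.50 and -0.35 for Hbb-bh1. Since each of these is a bound, the falls of the 3 genes are not ranked. Against the 4 probe sets of several adult genes, which read near the array maximum, the differences on the signals as deposited were -8.27 and -8.42 for Hbb-y, -2.93 and -3.18 for Hba-x, and -0.96 and -1.07 for Hbb-bh1. Against Hba-a2 and Hbb-b2 together, likewise as deposited, they were -7.39 and -7.45 for Hbb-y and -2.04 and -2.20 for Hba-x, while Hbb-bh1, at -0.08 and -0.10, no longer stood apart from the adult genes.

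Of the members that build or regulate red cells, Alas2, Klf1, Gata1, Epor and Epb42, none was called between stages in either genotype. Alas2, the erythroid enzyme that starts heme synthesis (chromosome X, 150547417 to 150570622), read 381 and 330 in E14.5C, 458 and 444 in E14.5M, 407 and 465 in E18.5C and 497 and 507 in E18.5M. Within each genotype the E18.5 arrays were above the E14.5 arrays, by 1.23 (1.07 to 1.41) and 1.11 (1.09 to 1.14) in the means, and the limma stage effect of 0.22 ± 0.12 (SE) had an adjusted p of 0.288.

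Klf1, a transcription factor that activates adult beta globin (chromosome 8, 84901982 to 84905291), read 281 and 333 in E14.5C, 301 and 297 in E14.5M, 371 and 337 in E18.5C and 331 and 302 in E18.5M. The E18.5 arrays were narrowly above the E14.5 arrays of the same genotype, with ratios of 1.15 and 1.06 and an adjusted p of 0.478. Gata1, the master regulator of red cell genes (chromosome X, 7959260 to 7976663), gave 29.7 to 45.9 on all 8 arrays, below the 40th percentile on each, and no ratio is read from it.

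Epor, the receptor for erythropoietin (chromosome 9, 21958897 to 21963576), read 549 and 540 in E14.5C, 602 and 622 in E14.5M, 587 and 602 in E18.5C and 593 and 561 in E18.5M. The lowest pair was E14.5C, and the other 3 pools overlapped in part. The stage ratio was 1.09 (1.07 to 1.12) in controls and 0.943 (0.902 to 0.985) in mutants, and the limma stage effect over both was 0.02 ± 0.12 (adjusted p = 0.935). Epb42, a protein of the red cell membrane skeleton (chromosome 2, 121017891 to 121036877), read 267 and 229, 231 and 242, 237 and 195, and 226 and 201 on probe set 1417338_at in the same order of pools (adjusted p = 0.377), and at most 21.4 on 1417337_at, below the 40th percentile on every array.

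Of the 14 probe sets 9 passed the filter of the limma fit, and 4 of these were called lower at E18.5 and 0 higher at an adjusted p below 0.05. Over all 27061 probe sets tested 5.2% were called lower and 3.42% higher. With 1 residual degree of freedom, the fit treats the 2 genotypes as replicates of a stage, so its p-values measure the spread between pools around an additive pattern. A member that passed through its E14.5 signal alone, as Hba-x and Hbb-y did, had to differ between stages. This count and the stage p-values of those probe sets are therefore no support of their own.

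Between control and mutant kidneys of one stage, no gene of the 9 was called by size: 0 in both directions at E18.5, where 2.23% of named genes were higher and 0.165% lower in controls, and 0 in both at E14.5, where the shares were 0.121% and 0.0055%. In limma 0 of 9 tested probe sets had a genotype effect, as did 0 (0% higher and 0% lower) of 27061 over all; 1045 of them had an unadjusted p below 0.05, and 71 were called when all 8 arrays were fitted with the pool as a random block.

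Hba-x was the member furthest from parity at E14.5. Its E14.5M arrays exceeded its E14.5C arrays by 1.52 in the means (1.30 to 1.78 over pairings), while the E18.5 arrays of both genotypes, 123 to 159, were below the 40th percentile, where no ratio is read. The limma genotype effect, which averages both stages as deposited, was 0.44 ± 0.14 (SE), with an unadjusted p of 0.0237 and an adjusted p of 1.00, the only one of the 9 probe sets below 0.05 before adjustment. Alas2 was also higher in mutants, by 1.27 (1.16 to 1.39) at E14.5 and 1.15 (1.07 to 1.25) at E18.5, with a limma effect of 0.28 ± 0.12 (adjusted p = 1.00). The 4 bright probe sets of several adult globin genes were 1.06 to 1.22 times higher in mutants at E14.5 and 1.05 to 1.17 times at E18.5.

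At E14.5, 12 of the 14 probe sets had a higher mean in mutants, against 46.2% of all probe sets on the array, but the arrays of the 2 pools were separate for only 3 of them, Hba-x, Alas2 and Epor, against 17.4% of all probe sets, and in the other direction for 0, against 19.7%. At E18.5 the arrays were separate for Alas2 and, under the 40th percentile, Hba-x with mutants higher (24.5% of all probe sets) and for Klf1 and one dim Hbb-y probe set with controls higher (17.6%). For all other probe sets the range over pairings of arrays included a ratio of 1. Several lists read higher in mutants at E14.5. The summed signal of endothelial markers, of which 11 of 11 were measured, was 5611 and 5649 on the E14.5C arrays and 6359 and 6368 on the E14.5M arrays. At E18.5 it was 8703 and 8728 in controls and 7031 and 8119 in mutants. The sum of 8 embryonic kidney genes was 8284 and 9097 in E14.5C and 9408 and 9139 in E14.5M. For 12 heme synthesis genes it was 6868 and 7042 in E14.5C and 8055 and 8238 in E14.5M. The megakaryocyte and platelet sum went the other way, at 2880 and 2747 in E14.5C and 2680 and 2734 in E14.5M. The macrophage and hepatocyte sums overlapped at E14.5. The summed signal of macrophage and leukocyte markers, of which 12 of 12 were measured, was 4581 and 5267 on the E18.5C arrays and 5909 and 6767 on the E18.5M arrays, with a median log2 ratio of control over mutant of -0.35 and 0 genes called. The part of any of these lists in these differences was not tested.

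**Figure D3:**
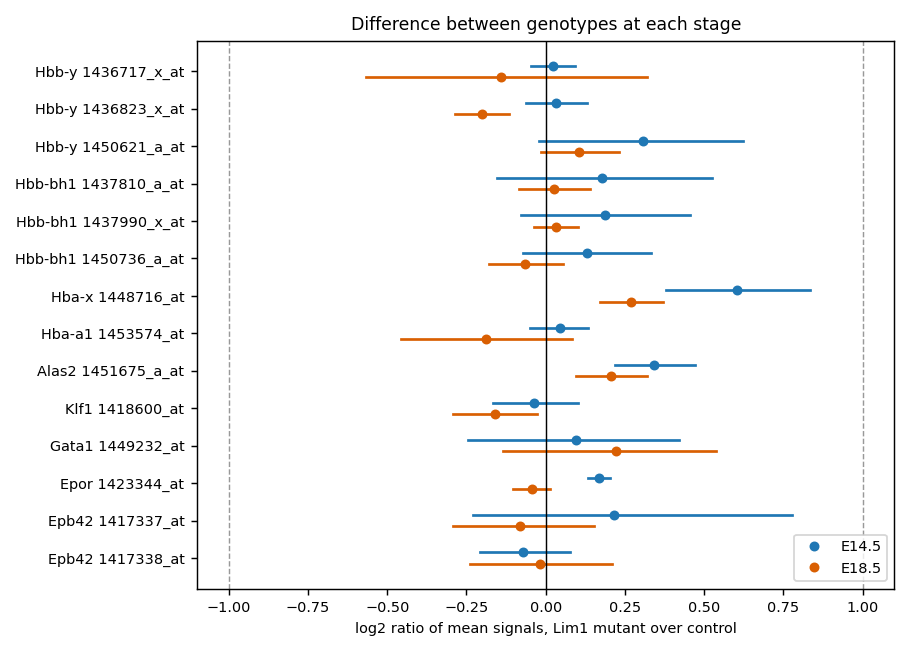
Log2 ratio of mean signals, Lim1 mutant over control, for the 14 probe sets at E14.5 (blue) and E18.5 (orange); bars are the range over 4 pairings of arrays and dashed lines 2-fold. Every point lies inside the 2-fold lines, and the whole range lies right of 0 for Alas2 at both stages (1.27 and 1.15) and for Hba-x at E14.5 (1.52); the E18.5 signals of Hba-x, of Hbb-y and of Hbb-bh1 are below the 40th percentile.

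Other genes of red cell biology gave a mixed picture. Of 92 genes on 7 lists (globins, heme synthesis, transcription factors, erythropoietin signalling, membrane, iron and enzymes) 75 were measured by a single-gene probe set, members included. In controls 7 were called higher at E18.5 (Cpox, Dmtn, Fth1, Hebp1, Slc11a2, Slc25a39 and Tmem14c) and 5 lower (Hbb-y, Hba-x, Hbb-b2, Klf3 and Myb), where 4.75% and 2.94% of all named genes were called. The median log2 ratio was 0.03, against -0.01 over all named genes. In mutants 1 was called higher (Fth1) and 5 lower (Hbb-y, Hba-x, Hbb-bh1, Hbb-b2 and Klf3), where 1.35% and 1.49% of all named genes were called, and the median was -0.01 against 0.02.

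By list, the globins held the lower calls, 3 of 6 measured genes in controls and 4 of 6 in mutants, with median log2 ratios of -1.20 and -1.34. Heme synthesis had 3 of 12 higher in controls (median 0.29) and 0 of 12 in mutants (median 0.03). Among 16 transcription factors 2 were lower in controls and 1 in mutants, 0 of 9 genes of erythropoietin signalling and 0 of 14 membrane genes in mutants were called, and 1 membrane gene was higher in controls. Iron genes gave 2 of 9 higher in controls and 1 of 9 in mutants, and enzymes 1 of 9 and 0 of 9. Outside the globins the lower calls were thus Klf3 and Myb, and the medians of the other lists lay between -0.13 and 0.29.

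**Figure D4:**
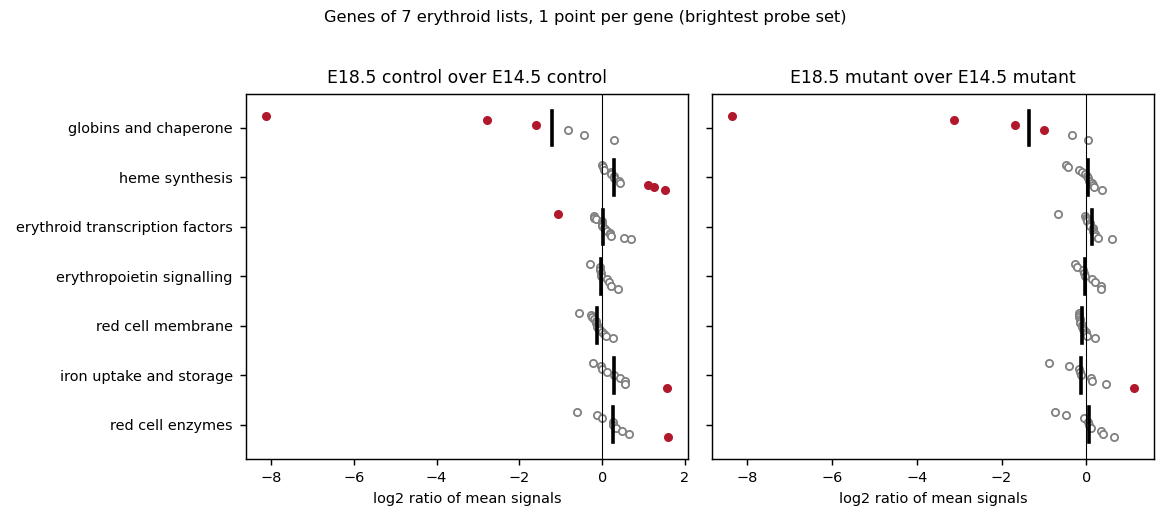
Log2 ratio of mean signals, E18.5 over E14.5, for the genes of 7 erythroid lists, 1 point per gene for its brightest probe set, red where that probe set was called, with the list median as a black line; controls on the left, mutants on the right. The globins alone reach below -2, and the other lists have medians between -0.13 and 0.29.

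Fth1, the heavy chain of the iron store ferritin, read 3242 and 2453 in E14.5C, 3824 and 3296 in E14.5M, 7890 and 8909 in E18.5C and 7318 and 8248 in E18.5M. On this probe set (1427021_s_at) it was called higher at E18.5 in both genotypes, by 2.95 and 2.19, and on the other (1448771_a_at) in controls, with ratios of 2.55 and 1.28. Hebp1, a heme-binding protein, was 3.01 times higher in E18.5C than in E14.5C and 1.57 times in mutants. Myb, a factor of immature blood cells, was called lower in controls, with stage ratios in controls and mutants of 0.478 and 0.626 (Myb, Dmtn and Slc11a2 are named after their values were seen). Klf3, a repressor related to Klf1, was called on probe set 1458487_at (ratios 0.367 and 0.476) and not on its brightest one (0.989 and 1.01), so the probe sets disagree. Those of Slc11a2 also disagree: in controls it was called on 1426441_at (2.09) and not on its brightest, 1452078_a_at (1.21). Bcl11a and Sox6, which silence embryonic globin genes in red cells and are given here for that role, chosen after their values were seen, had ratios of 1.00 and 0.991 and of 1.09 and 1.05 on their brightest probe sets.

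By mean signal over the 8 arrays, the brightest genes of the globin list on single-gene probe sets were Hbb-y, Hbb-b2 and Hba-x. They were called lower at E18.5 in both genotypes. Hbb-y and Hba-x ranked there through their E14.5 signal alone, so their calls are no separate result. Only 6 of the 14 listed globin genes had a single-gene probe set. Probe sets of several adult globin genes read 7073 to 16405. Brightest genes of the other lists are given with their stage ratios in controls and mutants. In heme synthesis, Slc25a39, a mitochondrial carrier, had ratios of 2.37 in controls and 1.28 in mutants, Tmem14c, a porphyrin transporter, 2.15 and 1.10, and Fech, which inserts iron into heme, 1.03 and 0.880. The factors Gata2 and Runx1 of early blood cells had 0.878 and 1.11, and 1.13 and 1.13. In erythropoietin signalling the survival gene Bcl2l1 had 1.16 and 0.970, the kinase Jak2 0.961 and 1.09, and Kitl, a ligand for early blood cells, 0.986 and 0.823. Among these genes of heme synthesis, early blood factors and erythropoietin signalling, only the ratios of Slc25a39 and Tmem14c in controls were called.

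The membrane skeleton genes Ank1, Dmtn and Sptb had ratios of 0.961 and 0.941, of 1.19 and 0.994, and of 1.06 and 0.966 on their brightest probe sets. Dmtn was called higher in controls on another probe set, 1460223_a_at, at 2.92, so its probe sets disagree. Of the iron genes, Aco1, which senses iron, had 1.35 and 0.912, and Tfrc 1.46 and 0.546. The enzymes Prdx2, Car2 and Cat had 1.25 and 1.08, 1.57 and 1.31, and 0.917 and 0.711, none of them called.

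Between genotypes, 4 of the 75 genes were called higher in E18.5C than in E18.5M, Cpox, Dmtn, Hebp1 and Tfrc, and 0 lower, where 2.23% and 0.165% of all named genes were called. Hebp1 narrowly reached the 2-fold cut, at 2.002 (1.85 to 2.18). Dmtn was called on 1460223_a_at (2.34) and not on its brightest probe set (1.09). The median log2 ratio of the 75 genes was 0.04 (-0.03 over all named genes). At E14.5 0 were called in either direction (median -0.04 against -0.01). Cpox, an enzyme of heme synthesis that other tissues also use, read 1204 and 1074 in E18.5C and 358 and 420 in E18.5M, a ratio of 2.93, and Tfrc, the transferrin receptor, read 2187 and 2044 against 790 and 971, a ratio of 2.40. The Tfrc call rested on 1 probe set (1452661_at). Of its other 5, only 1422966_a_at and an AFFX probe set reached the 40th percentile on all 8 arrays, with ratios of 1.07 and 1.08. The rest were below it on every array, where no ratio is read. The other Cpox probe sets were not called. Of these, 1422493_at had a ratio of 1.53 (1.33 to 1.79), and 1440747_at was below the 40th percentile on every array, where no ratio is read. Both genes are used by many cell types, and none of the 9 members was called in this comparison.

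Marker lists of other cell types differed in how they stood between stages. The summed signal of 11 endothelial genes was 5611 to 6368 at E14.5 and 7031 to 8728 at E18.5, that of 12 macrophage and leukocyte genes 4148 to 4655 and 4581 to 6767, that of 6 hepatocyte genes 1070 to 1241 and 1764 to 4478, and that of 10 megakaryocyte and platelet genes 2680 to 2880 and 2385 to 2684. The stages were separate for the endothelial and hepatocyte sums and overlapped for the others. The sum of 8 embryonic kidney genes was 8284 to 9408 at E14.5 and 5015 to 7204 at E18.5, with no overlap, and 3 of the 8 were called lower in controls (Foxd1, Sall1 and Six2) and 1 in mutants (Foxd1), named after their values were seen. The platelet gene Gp9, named after its values were seen, was lower at E18.5 by the size criteria in both genotypes, with ratios of 0.354 and 0.349, and the other 9 were not called. Called higher at E18.5 in controls were C1qc of the macrophage list, Egfl7, Plvap and Tie1 of endothelium, and Afp and Ttr of hepatocytes. In mutants they were 4 of 12 macrophage genes (C1qa, C1qb, C1qc and Ptprc), Tie1 of endothelium, and Alb and Ttr of hepatocytes. Over all named genes 4.75% were called higher in controls and 1.35% in mutants. These genes too are named after their values were seen. Among the brightest, Kdr, Cdh5 and Plvap of endothelium had stage ratios of 1.03 and 0.880, 1.33 and 1.15, and 2.50 and 1.28, and Csf1r, Mrc1 and Fcer1g of macrophages 1.03 and 1.20, 0.914 and 1.20, and 1.12 and 1.27. Afp, Ttr and Alb of the hepatocyte list had 4.86 and 1.24, 18.1 and 2.43, and 1.69 and 2.54, and the platelet genes Gp5, Gp1bb and Treml1 1.09 and 1.43, 0.917 and 1.04, and 0.738 and 0.928. No marker of these lists was listed at 0. Their part in the fall of the embryonic globins was not tested.

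Likeness of time course was measured as the Euclidean distance between log2 profiles over the 4 pools, each centred on its mean, over probe sets of other genes that reached the 40th percentile in at least 1 pool. Hbb-y entered with its E18.5 signals as deposited, under the 40th percentile, so its distances rest on a fall known only by its bound. For Hbb-y the nearest of 23857 were Sod1 (4.83), Hmga2 (5.12) and Pabpc4l (5.18), and for Hba-x, likewise under the 40th percentile at E18.5, they were Nucks1 (0.582), Hmga2 (0.596) and Elavl2 (0.631), with 13 of 23859 within 1 log2 unit. The flat profiles of Hba-a1 and Alas2 had 22390 and 22058 probe sets within 1, the nearest being 4921524J17Rik, Unc119b and Agtrap for the first and Trim24, Tsc22d1 and Ago1 for the second. With 4 pools such distances are a description.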

How the data were processed

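The authors hybridised 2 target preparations of each of 4 RNA pools (8 arrays), scaled the scans in Affymetrix Microarray Suite, and computed model-based values in dChip, normalized to an invariant set of probes. The deposited values are linear signal intensities, 1 per probe set and array. Their array medians, 225 to 243, are above the median intensities that the study gives after normalization, and the reason is not known. Replicates were not pooled further, and 0 columns of sample values were left unused. Genome build is not given in the sources used here. Gene names came from the platform annotation, with symbols updated by gene identifier: 34958 of 45101 probe sets had 1 gene, 932 several and 9211 none. Probe sets of several genes were given no single gene name.

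Pools were compared by the size criteria of the study's methods: ratio of arithmetic means at least 2, above the fold between duplicates of either pool, mean of the higher pool times ratio above 100, and both its arrays at or above the 40th percentile of their array, which stands in for the present call. A gene counted once if any probe set passed. The error given is the range over 4 pairings of arrays. The stage and genotype effects were fitted by limma 3.58.1 (R 4.3.3) to the pool means of log2(signal + 1), so fold changes of low signals are understated, with Benjamini-Hochberg adjustment over 27061 probe sets (mean signal at the 40th percentile or above), residual degrees of freedom of 1 and a prior of 3.91. Other steps used Python 3.11.15 with pandas 2.3.3, and the criteria and fit were tested on simulated data.

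Every member probe set was named. Of the other listed genes, those named were the 2 highest and 2 lowest ratios among calls, the 3 with the highest signal, and others said to be chosen after their values were seen; genes called in counts of a list are also named. The members and lists were chosen with earlier results of these data known. List medians use the brightest probe set of each gene. Alternatives changed the minimum signal, normalization, means, offset, duplicate criterion and probe set choice, and left out each array. Arrays give no count of molecules, so their number, 2 a pool, limits the precision.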

Additional observations from a re-analysis of the deposited data

Results flagged for a closer look

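Epor was singled out because its 2 genotypes moved in opposite directions with stage on every pairing of arrays. The log2 stage change was 0.13 in controls and -0.08 in mutants, a difference of 0.211. Both E14.5C arrays (549 and 540) lay below both E18.5C arrays (587 and 602), and both E14.5M arrays (602 and 622) above both E18.5M arrays (593 and 561). The difference between genotypes was not tested, since each condition is 1 pool, and no ratio reached 2.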

How the results depend on the processing

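Hbb-y and Hba-x were called lower at E18.5 in both genotypes under each alternative to the size criteria, and no member was called between genotypes. Hbb-bh1 was added in controls (3 genes in place of 2) with no minimum signal. In mutants it was lost (2 in place of 3) with the 50th percentile as the minimum, with 50 units added, and without the first E14.5M or the second E18.5M array. In limma, without the filter on low signals 7 member probe sets were called lower at E18.5 in place of 4, the 3 of Hbb-bh1 being added, which the larger set of probe sets tested allows. With the replicate block (array number, all 8 arrays, pool as a random block) 4 were called lower for stage and 0 for genotype, as without it. Over all probe sets the genotype calls were 12 with it and 71 without. The array numbers mark target preparations. Deviations of equal numbers correlated at -0.279, -0.454 and -0.277 between E14.5M and the other pools. Among E14.5C, E18.5C and E18.5M they correlated at 0.076, 0.420 and 0.401. Whether a shared technical factor pairs the arrays was not tested.

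The median embryonic minus Hba-a1 difference, -3.06 in controls and -3.16 in mutants, became -2.62 and -2.81 with 50 units added, -2.04 and -2.20 against Hba-a2 and Hbb-b2 (chosen after seeing the data), and -2.60 in controls with E18.5 signals raised to the 40th percentile (likewise). That last setting took Hbb-y from -8.41 in both genotypes to -5.52 and -5.27. The median over the 7 lists was 0.03, 0.04 and -0.04 for E18.5C over E14.5C, E18.5C over E18.5M and E14.5C over E14.5M. With the mean over probe sets of a gene it was -0.0066, -0.012 and -0.0073, and with quantile normalization 0.066, 0.0098 and -0.011; the cause was not tested. For Hbb-y, adding 50 units reduced the log2 stage ratio to -6.53 in controls and -6.62 in mutants on probe set 1436823_x_at. No ratio of a called member turned. Signals below the 40th percentile bound the size of the embryonic globin fall.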
